A study of Mus musculus with 8 samples.

Results

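The genes described here are 9 genes through which vitamin A is carried, stored and turned over: Lrat, Rbp4, Rdh10, Dhrs3, Aldh1a1, Aldh1a2, Cyp26a1, Cyp26b1 and Bco1. They were taken by name from an expression table of mouse liver in which array features with exactly 1 gene symbol were averaged per symbol, and they make up 9 of the 22180 genes so obtained; each was read by 1 feature. In RefSeq (GRCm38.p6) they lie at chr3:82892582-82903974 (Lrat), chr19:38116620-38125321 (Rbp4), chr1:16105882-16132550 (Rdh10), chr4:144892534-144928209 (Dhrs3), chr19:20492583-20643463 (Aldh1a1), chr9:71215789-71296243 (Aldh1a2), chr19:37697738-37701536 (Cyp26a1), chr6:84571414-84593908 (Cyp26b1) and chr8:117095851-117133720 (Bco1). The study asked how an acute inflammatory signal acts on the liver. Male wild-type mice bought at 7 weeks of age and acclimated for 2 weeks received an intraperitoneal injection of vehicle (PBS, 4 mice) or of 0.5 µg recombinant mouse IL1B per mouse (4 mice), and livers were taken after 3 h. IL1B is interleukin 1 beta, a cytokine of the acute phase response. The labels name no other treatment or allele. By strain, the PBS mice are labelled C57BL/6J and the IL1B mice C57BL/6 x CBA, whereas the description of the series names C57BL/6J alone, so by the sample labels strain and treatment cannot be told apart.

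Retinol circulates bound to RBP4, which hepatocytes secrete, and most of the body's reserve lies in hepatic stellate cells as retinyl esters made by LRAT. Retinol is oxidized reversibly to retinaldehyde and then irreversibly to retinoic acid, the ligand of the nuclear receptors RAR and RXR. Retinoic acid is cleared by the CYP26 enzymes, whose genes it induces in many tissues.

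Values are log2 expression levels. The highest background probe set, of 23 that match no mouse transcript, read 6.65 to 7.08 across the 8 arrays, and a value at or below that of its own array is called background. The highest value was 19.93 in every array, and a value of 18.93 or above is called saturated. Array medians lay between 5.64 and 5.76. Of the hepatocyte markers, Alb, Apoa1, Apob, Cps1, Ttr and Tat were saturated in all 8 arrays and Fabp1 in all but 1, so the list gives no comparison of hepatocyte content; of the others, Hnf4a was called higher (log2 fold change 1.25) and Serpina1a lower (-0.48). Being whole liver, the samples do not separate fewer cells of a type from less RNA per cell.

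At an adjusted p of 0.05 or less (limma, Benjamini-Hochberg over all genes), 4 of the 9 genes were lower in the IL1B livers, namely Dhrs3, Lrat, Rbp4 and Cyp26b1, against 5.32% of all genes, and none was higher, against 7.19% of all genes. Those 4 genes were also the ones whose groups did not overlap, all of them lower, against 9.14% of all genes lower without overlap and 9.81% higher. These shares, here and below, are over all 22180 genes, of which 12160 were at background in all 8 arrays. Among the 8880 genes above background in at least 4 arrays, tested alone, 1147 were lower and 1783 higher. Of the members tested there, 3 were lower, Cyp26b1 having been removed. With any of PBS 3, PBS 4, IL1B 1 and IL1B 4 left out, the count of lower members was 2, in each case Dhrs3 and Lrat. The log2 fold change was negative for 8 genes and positive for Bco1, and it was negative for 12857 of all 22180 genes. Of the 8, Aldh1a2 was at background throughout, and the signs of Aldh1a1 and Cyp26a1 turned in fits without 1 array. The median over the 9 genes was -0.41, the value of Cyp26a1, where that of all genes was -0.06. With values under background raised to the background level of their array, the medians were -0.29 and -0.13. The -0.13 is what this gives any gene at background in all 8 arrays, so it is not a measured shift.

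**Figure D1:**
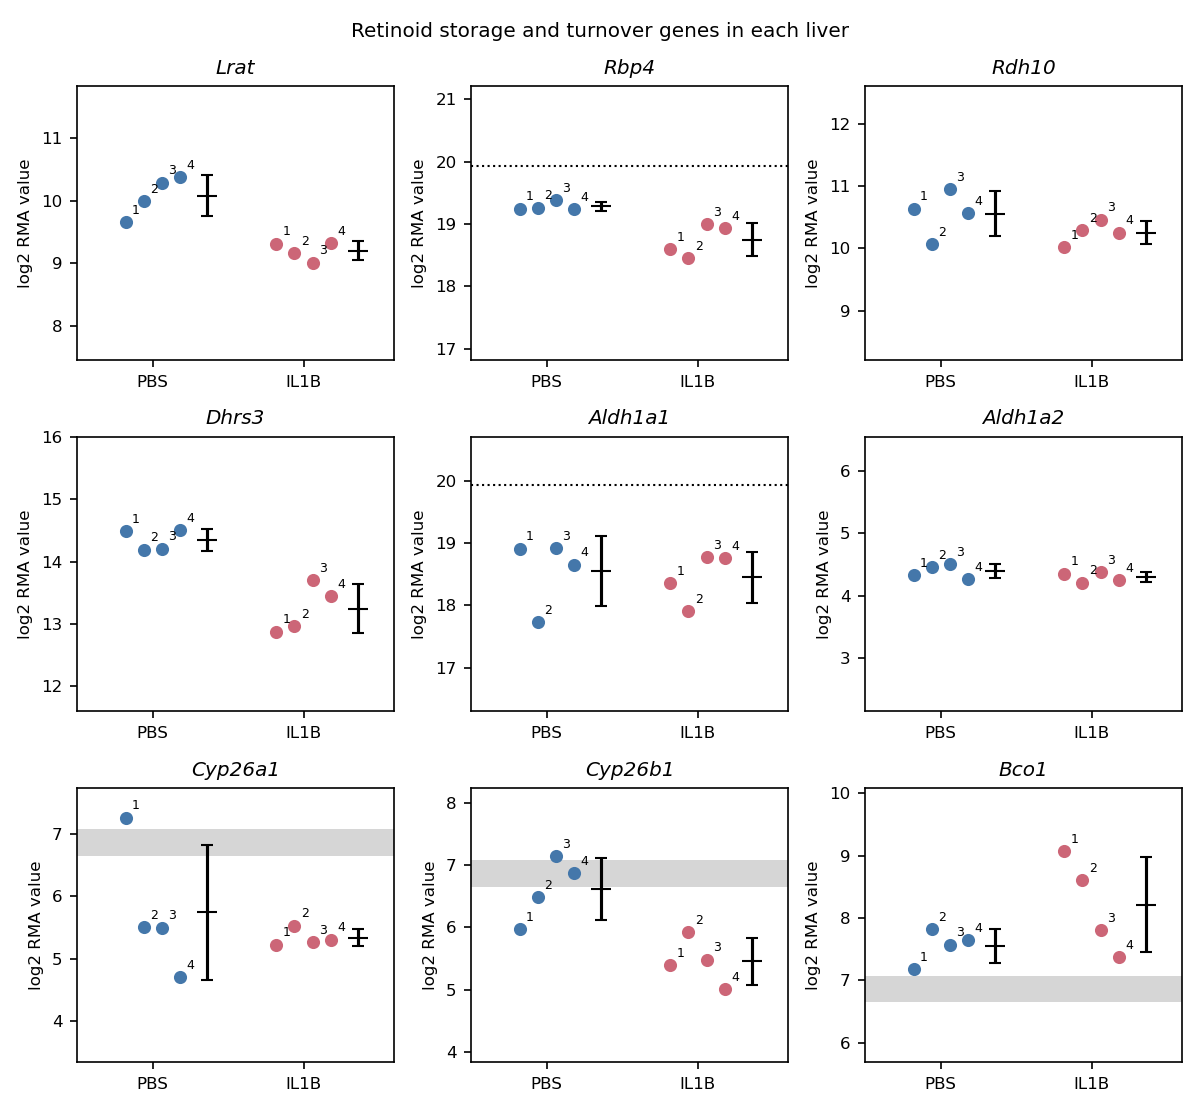
Log2 expression level (vertical axes) of the 9 retinoid genes in each of 4 PBS and 4 IL1B livers, with points for livers, horizontal bars for group means, vertical bars for 1 SD, a grey band for the background level (6.65 to 7.08) and a dotted line for the highest value of the arrays (19.93). The IL1B points of Dhrs3 (12.88 to 13.70) and Lrat (9.01 to 9.32) all lie under the PBS points (14.19 to 14.51 and 9.66 to 10.38).

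Lrat encodes the enzyme that esterifies retinol for storage. Its level was 9.66, 9.99, 10.29 and 10.38 in PBS livers 1 to 4 and 9.32, 9.16, 9.01 and 9.32 in IL1B livers 1 to 4. Every IL1B liver was below every PBS liver, and the lowest PBS liver, PBS 1, stood nearest to the IL1B values. The mean fell from 10.08 ± 0.33 to 9.20 ± 0.15 (SD, n = 4 each), a log2 fold change of -0.88 with a standard error of 0.18 (limma, adjusted p = 0.0123) and a 95% confidence interval from -1.28 to -0.48. On the linear scale this was a 1.84-fold lower level, and 3.53% of all genes had a lower log2 fold change.

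Lrat is made in stellate cells in the liver. Of 17 measured markers of that cell type, 6 were lower, against 5.32% of all genes, and none was higher, against 7.19%. The log2 fold change was negative for 14 of the 17, with a median of -0.39. With values under background raised to the background level of their array, that median was -0.23. The median over all genes was then -0.13, the value of any gene at background in all 8 arrays. The summed level of the markers, most of it Dcn, was 16.44 to 16.82 in PBS livers and 16.48 to 16.76 in IL1B livers. Des, Hand2, Lhx2 and Gfap were at background in all 8 arrays, Lhx2 being also among the 6 called lower. Also among those 6, Tcf21 was at background in 3 PBS and all 4 IL1B livers and Pth1r in all 4 IL1B livers. The part of stellate cell number in the Lrat difference was not tested.

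Rbp4 encodes the plasma carrier of retinol. Its level was 19.25, 19.26, 19.39 and 19.24 in PBS livers 1 to 4 and 18.59, 18.45, 19.00 and 18.93 in IL1B livers 1 to 4. The groups did not overlap, but all 4 PBS livers and 2 of the IL1B livers were saturated. The measured means were 19.28 ± 0.07 and 18.75 ± 0.26 (SD, n = 4 each), a measured log2 fold change of -0.54 with a standard error of 0.15 (limma, adjusted p = 0.0495). Since both groups held saturated values, its size is not a measure of the fold change or a bound on it. The call lay at the threshold and did not hold in 7 of the 8 fits made without 1 array, the exception being the fit without IL1B 3 (log2 fold change -0.62, adjusted p = 0.0421); the adjusted p reached 0.128 without IL1B 1. Transthyretin, the partner of RBP4 in plasma, was at the ceiling in all 8 arrays and gives no difference.

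The oxidation of retinol to retinaldehyde by RDH10 and the reverse reduction by DHRS3 are opposite steps. The Dhrs3 level was 14.49, 14.19, 14.21 and 14.51 in PBS livers 1 to 4 and 12.88, 12.96, 13.70 and 13.45 in IL1B livers 1 to 4. All IL1B livers were below all PBS livers, with IL1B 1 and 2 the lowest. The mean fell from 14.35 ± 0.17 to 13.25 ± 0.39 (SD, n = 4 each), with a log2 fold change of -1.10, a standard error of 0.20 and a 95% confidence interval from -1.56 to -0.65 (limma, adjusted p = 0.00768). This was a 2.15-fold lower level, and 2.12% of all genes had a lower log2 fold change.

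Rdh10 was not called. It read 10.64, 10.07, 10.95 and 10.56 in PBS livers 1 to 4 and 10.02, 10.29, 10.46 and 10.25 in IL1B livers 1 to 4. The groups overlapped, since PBS 2 was below 3 of the IL1B livers. The log2 fold change was -0.30 with a standard error of 0.19 (limma, adjusted p = 0.368). Its 95% confidence interval ran from -0.73 to 0.14 and included no change. Of the called members, only Rbp4, limited by saturation, had a measured log2 fold change inside that interval. The intervals of Lrat, Dhrs3 and Cyp26b1 overlapped that of Rdh10, and differences between members were not tested. Within each array, the Rdh10 value less the Dhrs3 value was -4.12 to -3.26 in PBS livers and -3.25 to -2.68 in IL1B livers, so the 2 ranges were adjacent without overlapping. The mean of this difference shifted by 0.80, which was not tested.

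**Figure D2:**
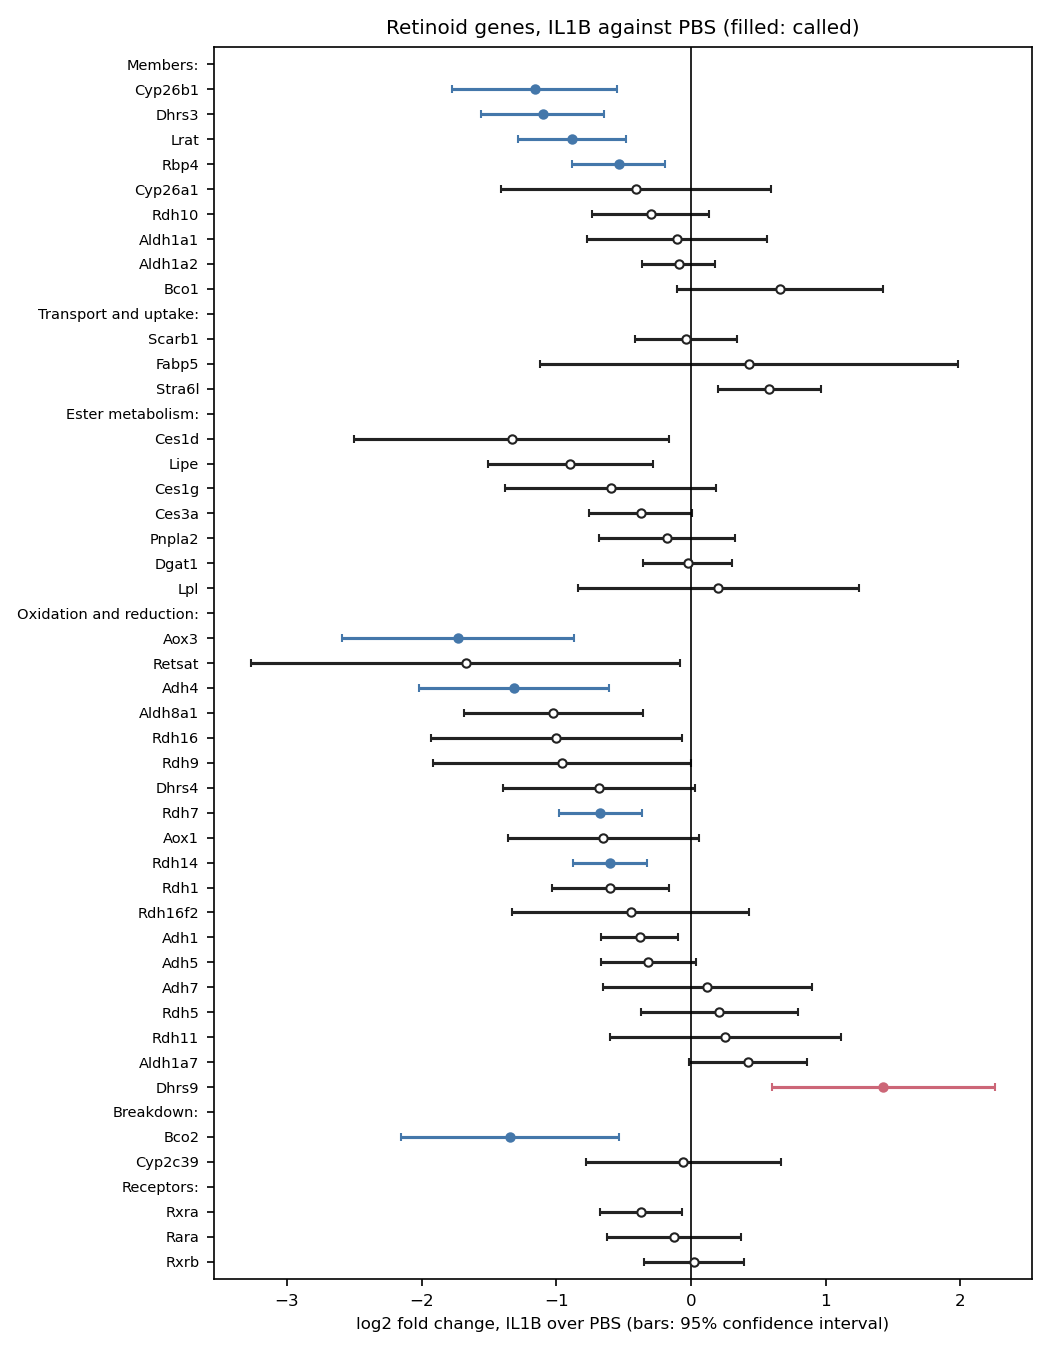
Log2 fold change, IL1B less PBS (horizontal axis), with 95% confidence intervals for the 9 retinoid genes and the 34 other retinoid pathway genes that were neither at background nor at the ceiling in all 8 arrays (filled, called; open, not called). Aldh1a2 is drawn though it was at background throughout, and Cyp26a1, Cyp26b1, Lipe and Rdh1 though they were at background in all IL1B livers. Rbp4 and Ces3a are drawn though saturated in all 4 PBS livers and in 2 and 3 IL1B livers. The interval of Dhrs3 runs from -1.56 to -0.65, that of Rdh10 from -0.73 to 0.14.

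The Dhrs3 and Lrat promoter windows are printed because these were the members whose calls held in every alternative analysis. They run from 250 bases before to 50 bases after the start of an annotated transcript and come from RefSeq (GRCm38.p6), with Lrat on the minus strand at chr3:82903925-82904224 and the first of 3 Dhrs3 windows on the plus strand at chr4:144892577-144892876. Both are in lower case throughout because none of the motifs searched was found in them.
Lrat: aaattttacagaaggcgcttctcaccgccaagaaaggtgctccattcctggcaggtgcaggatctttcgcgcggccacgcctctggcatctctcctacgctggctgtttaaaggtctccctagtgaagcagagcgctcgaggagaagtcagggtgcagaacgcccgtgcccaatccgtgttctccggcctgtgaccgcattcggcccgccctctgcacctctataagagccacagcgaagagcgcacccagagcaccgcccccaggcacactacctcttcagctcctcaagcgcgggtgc
Dhrs3: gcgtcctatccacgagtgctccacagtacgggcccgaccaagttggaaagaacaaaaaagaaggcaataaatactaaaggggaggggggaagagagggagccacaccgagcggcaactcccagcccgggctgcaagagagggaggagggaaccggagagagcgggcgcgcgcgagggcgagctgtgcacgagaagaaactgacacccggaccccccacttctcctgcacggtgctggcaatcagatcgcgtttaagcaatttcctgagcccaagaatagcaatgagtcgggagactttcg

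The search covered direct repeats of the nuclear receptor half-site, as AGGTCA or AGTTCA or GGGTCA or else GGTTCA, spaced by 5, 2 or 1 bases (DR5, DR2 and DR1, the arrangements to which RAR and RXR dimers bind) and the kappa-B motif of NF-kappa-B, on both strands. Of 32851 mouse promoter windows of this length, DR5 was found in 0.0974%, DR2 in 0.268%, DR1 in 0.222% and the kappa-B motif in 8.46%. Windows were given for 8 of the 9 genes, all but Rdh10. A match describes the letters only, and its distance is from the start that its window was built on, which for Dhrs3, Cyp26a1, Cyp26b1 and Bco1 lies inside the gene span given above.

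Retinaldehyde is oxidized to retinoic acid by the enzymes of the ALDH1A family. Aldh1a1, the abundant form in mouse liver, read 18.91, 17.73, 18.92 and 18.65 in PBS livers 1 to 4 and 18.36, 17.90, 18.77 and 18.76 in IL1B livers 1 to 4. The ranges lay almost on each other, just under the level called saturated, with PBS 2 and IL1B 2 the lowest of their groups. The log2 fold change was -0.10 with a standard error of 0.30 (limma, adjusted p = 0.866) and a 95% confidence interval from -0.77 to 0.56, and its sign turned without PBS 1, without PBS 3 and without IL1B 2 (up to 0.08). Aldh1a2, the form that makes most retinoic acid in the embryo, was at background in all 8 arrays, at 4.26 to 4.50 in PBS livers and 4.21 to 4.38 in IL1B livers. Its log2 fold change is drawn in the figures only and is not a measure of change.

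The CYP26 enzymes break retinoic acid down. Cyp26b1 read 5.98, 6.49, 7.14 and 6.87 in PBS livers 1 to 4 and 5.40, 5.92, 5.49 and 5.02 in IL1B livers 1 to 4. The groups did not overlap, but PBS 3 and PBS 4 alone were above background. The measured means were 6.62 ± 0.50 and 5.46 ± 0.37 (SD, n = 4 each), with a log2 fold change of -1.16 and a standard error of 0.27 (limma, adjusted p = 0.0226). The background level of the IL1B arrays (6.65 to 6.67) was above the mean of the PBS livers. No linear fold is therefore given, and the size of the log2 value is not a measure of the change. The call was lost in 5 of the 8 fits without 1 array (without PBS 3, PBS 4, IL1B 1, IL1B 3 or IL1B 4, adjusted p of up to 0.0610).

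Cyp26a1, the member of the family most responsive to retinoic acid in liver, read 7.26, 5.50, 5.50 and 4.70 in PBS livers 1 to 4 and 5.23, 5.53, 5.27 and 5.31 in IL1B livers 1 to 4. PBS 1 was the only liver above background. The log2 fold change was -0.41 with a standard error of 0.45 (limma, adjusted p = 0.614), and it turned to 0.10 without PBS 1. The Cyp26a1 window is shown because it held the only DR5 found among the 9 genes (plus strand, chr19:37697558-37697857). Capitals mark the element, which lay 32 to 16 bases before the start and reads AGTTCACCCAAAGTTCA on the minus strand. The Cyp26b1 window (minus strand, chr6:84593761-84594060) held a kappa-B match, GGGACACCCC,, beginning 206 bases before the start.
Cyp26a1: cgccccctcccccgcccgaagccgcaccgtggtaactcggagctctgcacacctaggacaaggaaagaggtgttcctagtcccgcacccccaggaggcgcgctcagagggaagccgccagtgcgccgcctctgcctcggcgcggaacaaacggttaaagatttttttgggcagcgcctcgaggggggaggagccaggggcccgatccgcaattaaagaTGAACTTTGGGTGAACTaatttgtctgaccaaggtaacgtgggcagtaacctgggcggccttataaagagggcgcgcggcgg

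Bco1 encodes the enzyme that cleaves beta-carotene to retinaldehyde, the entry of plant carotenoids into vitamin A. Its level was 7.18, 7.82, 7.57 and 7.64 in PBS livers 1 to 4 and 9.07, 8.61, 7.80 and 7.37 in IL1B livers 1 to 4. IL1B 1 and 2 were above all PBS livers, while IL1B 3 and 4 lay within the PBS range. The means were 7.55 ± 0.27 and 8.21 ± 0.77 (SD, n = 4 each), and the log2 fold change of 0.66 with a standard error of 0.34 was not called (limma, adjusted p = 0.252, 95% confidence interval -0.10 to 1.43). The Bco1 window, on the plus strand at chr8:117095615-117095914, is shown for the DR1 it held 56 to 44 bases before the start (capitals), the only direct repeat found in a member beside that of Cyp26a1; it reads AGGTCAAAGGTCA on the minus strand.
Bco1: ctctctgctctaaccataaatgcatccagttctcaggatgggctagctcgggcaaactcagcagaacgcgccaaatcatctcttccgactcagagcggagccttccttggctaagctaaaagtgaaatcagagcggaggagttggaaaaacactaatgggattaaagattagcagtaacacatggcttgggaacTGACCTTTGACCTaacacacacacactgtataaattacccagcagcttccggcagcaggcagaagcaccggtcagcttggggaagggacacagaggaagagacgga

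IL1B 1 and 2, the highest livers for Bco1, were also the lowest for Dhrs3 and Rbp4. The summed level of 7 neutrophil markers, all of them called higher, was 14.47 and 14.91 in IL1B 1 and 2, 10.94 and 10.68 in IL1B 3 and 4, and 7.85 to 8.64 in PBS livers. All of these markers but Csf3r were at background in all 4 PBS livers, so the gap to the PBS sums is not a measured fold. The 7 Kupffer cell markers, none of them called, summed to 16.60 and 15.73 in IL1B 1 and 2, to 13.61 and 13.19 in IL1B 3 and 4, and to 13.30 to 14.49 in PBS livers. Of the 8 markers of liver sinusoidal endothelium 5 were lower, against 5.32% of all genes, and 1 was higher, against 7.19% (summed level 15.68 to 15.84 in PBS livers, 15.19 to 15.58 in IL1B livers), and of 7 mesothelial markers 6 were at background and none was called (8.84 to 9.06 and 7.99 to 9.07). The part of these cells in the levels of the retinoid genes was not tested.

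**Figure D3:**
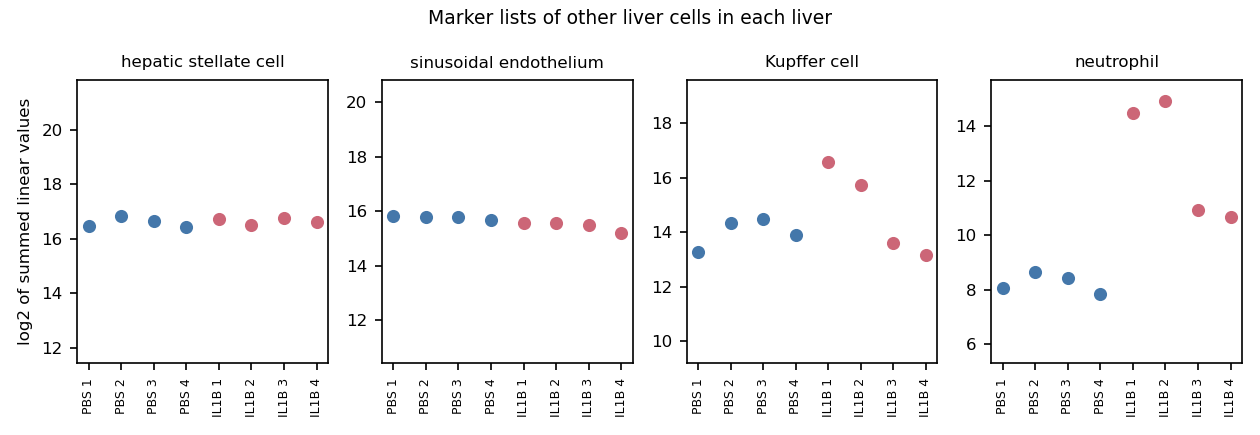
Log2 of the summed linear values of the marker lists of 4 non-parenchymal cell types (vertical axes, each spanning the same number of log2 units) in each of 4 PBS and 4 IL1B livers, 1 point per liver. The neutrophil sums of IL1B 1 and 2 (14.47 and 14.91) lie above those of IL1B 3 and 4 (10.94 and 10.68), and all 4 lie above the PBS livers (7.85 to 8.64). All neutrophil markers but Csf3r were at background in all 4 PBS livers.

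Among 51 other measured genes of retinoid handling, of 53 listed, 1 was higher, against 7.19% of all genes, and 6 were lower, against 5.32%. At background in both groups were 16, among them Rxrg, 1 of the 6 lower genes. The median log2 fold change was -0.32, against -0.06 over all genes. With values under background raised to the background level of their array, both medians were -0.13. By role, none of 10 transport genes and none of 9 genes of ester synthesis and hydrolysis was called. Of 22 oxidoreductases 1 was higher and 4 were lower, of 4 genes of breakdown and carotenoid cleavage 1 was lower, and of 6 receptors 1 was lower.

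Dhrs9, a dehydrogenase of the retinol pathway, was the gene that rose. It read 8.55, 8.60, 7.28 and 8.49 in PBS livers 1 to 4 and 10.49, 9.74, 9.33 and 9.07 in IL1B livers 1 to 4, a log2 fold change of 1.43 with a standard error of 0.37 (limma, adjusted p = 0.0341). Its call held in 2 of the 8 fits without 1 array, those without PBS 2 and without IL1B 4, and the adjusted p rose to 0.0778 without IL1B 1. The groups did not overlap, and IL1B 1 was again the highest.

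Aox3, an aldehyde oxidase of mouse liver, showed the largest fall of the list. It read 17.66, 17.92, 17.78 and 18.26 in PBS livers 1 to 4 and 16.11, 14.96, 16.59 and 17.03 in IL1B livers 1 to 4, a log2 fold change of -1.73 with a standard error of 0.39 (limma, adjusted p = 0.0181). All IL1B livers were below all PBS livers, and the call was lost without PBS 4 (adjusted p = 0.0512) or IL1B 1 (0.0502). Bco2, which cleaves carotenoids at another bond than BCO1, read 10.36, 9.47, 9.91 and 9.16 in PBS livers 1 to 4 and 8.16, 7.51, 8.91 and 8.96 in IL1B livers 1 to 4. Its log2 fold change of -1.34 with a standard error of 0.36 (limma, adjusted p = 0.0398) was opposite in sign to the uncalled value of Bco1, and its call held in 3 of the 8 fits without 1 array, those without PBS 4, IL1B 3 or IL1B 4 (adjusted p of up to 0.106 in the others).

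The retinol-oxidizing enzymes Adh4 and Rdh7 were lower too. Adh4 read 15.90, 14.73, 15.80 and 15.98 in PBS livers 1 to 4 and 14.45, 13.65, 14.72 and 14.34 in IL1B livers 1 to 4 (log2 fold change -1.31, standard error 0.32, limma adjusted p = 0.0251). Rdh7 read 17.73, 17.50, 17.61 and 17.42 against 16.84, 16.95, 17.08 and 16.69 (log2 fold change -0.68, standard error 0.14, adjusted p = 0.0124). The groups were apart in both genes, though for Adh4 the lowest PBS liver, PBS 2, stood only just above the highest IL1B liver and the call held in 3 of the 8 fits without 1 array, those without PBS 2, IL1B 3 or IL1B 4 (adjusted p of up to 0.0748 in the others). The remaining lower genes, named after their values were seen, were Rdh14, a retinal reductase (log2 fold change -0.61, adjusted p = 0.0122), and Rxrg, which was at background in all 8 arrays and gives no fold change.

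Stra6l, Rxra, Cyp26c1, Aldh1a3 and Rarb, named for roles that pair with those of a member, were not called. Stra6l, the liver receptor for RBP4 in mice, read 14.86, 14.34, 14.35 and 14.70 in PBS livers 1 to 4 and 15.26, 14.88, 15.33 and 15.10 in IL1B livers 1 to 4. Its groups did not overlap, with a log2 fold change of 0.58 and a standard error of 0.17 that just missed the threshold (limma, adjusted p = 0.0534). It was called in 5 of the 16 alternatives, among them the fits without PBS 1 and without IL1B 2 (adjusted p 0.0278 to 0.130 over all 16). Rxra, the main RXR of liver, had a log2 fold change of -0.37 with a standard error of 0.14 (adjusted p = 0.110), its IL1B livers (13.17 to 13.45) lying just under its PBS livers (13.49 to 13.84). Cyp26c1, Aldh1a3 and Rarb, the retinoic acid receptor beta gene, were at background in all 8 arrays.

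**Figure D4:**
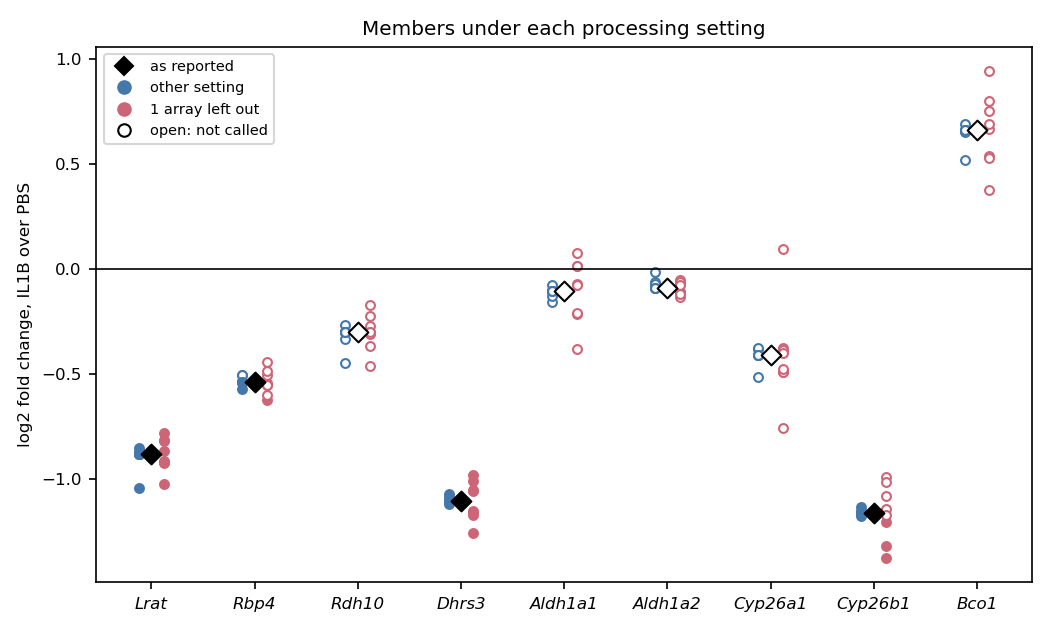
Log2 fold change, IL1B less PBS (vertical axis), of the 9 retinoid genes as reported (diamonds), under other processing settings (blue) and with 1 array left out (red), with filled symbols for called values and open symbols for uncalled values. Dhrs3 (-1.25 to -0.98) and Lrat (-1.04 to -0.78) were called in all 16 alternatives, Rdh10, Aldh1a1 and Bco1 in none.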

How the data were processed

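The authors ran liver RNA of 8 mice on Affymetrix MoGene 2.0 ST arrays, 1 per mouse. The deposited log2 values were made by the authors with Affymetrix Power Tools, with robust multi-array averaging (RMA), GC correction where available and scaled intensities; no source used here gives the version. RMA normalizes between arrays, which removes part of any global difference. Of 41345 features, 23521 had 1 gene symbol and were averaged to 22180 genes; the others were not named.

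Each gene was tested with limma 3.58.1 in R 4.3.3 (lmFit and eBayes, all 8 arrays, group as the only factor), with Benjamini-Hochberg adjustment over all genes and calls at 0.05 or less. The p-values therefore reflect how far these individual mice differ, and 4 arrays per group limit the precision. Motifs were searched with Python 3.11.15 in RefSeq promoter windows. Figures were drawn with matplotlib 3.10.9. The fit was tested on simulated data with known changes.

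The members and lists were chosen with earlier results of these data known, as were the bounds for background and saturated values. Named were all members, the called pathway genes with the largest changes (up to 4 each way, not at background in both groups) and genes whose role pairs directly with a member. Fold changes of the named genes and the counts of calls among members, pathway genes and all genes were recomputed without each array in turn, at a threshold of 0.15, with the replicate number as a block, with array weights, with a trended robust eBayes, over genes above background in at least 4 arrays (the filter on dim genes), with only the brightest feature of each gene, and after median centring or quantile normalization. The Rdh10 less Dhrs3 shift was recomputed without each array, after either normalization and with the brightest feature. Marker counts, marker sums and medians were not recomputed in these alternatives.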

Additional observations from a re-analysis of the deposited data

Results flagged for a closer look

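In 42 groups of 4 livers (21 named genes in either group), the gap of the highest or lowest liver to its nearest neighbour exceeded Dixon's 95% critical value for a share of the group's range in 5 cases; chance flags about 1 in 20 groups. Rbp4 in PBS 3 was 19.39 where the other PBS livers had 19.24 to 19.26, all of them saturated. Dhrs9 in PBS 3 was 7.28 where the others had 8.49 to 8.60. Adh4 in PBS 2 was 14.73 where the others had 15.80 to 15.98. Rxra in PBS 2 was 13.49 where the others had 13.80 to 13.84, and in IL1B 3 it was 13.17 where the others had 13.41 to 13.45.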

How the results depend on the processing

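Dhrs3 and Lrat were called lower in all 16 alternatives, and Rdh10, Aldh1a1 and Bco1 in none. Rbp4 was called in 5 of 16 (adjusted p 0.0240 to 0.128) and Cyp26b1 in 10 of 15 (0.0127 to 0.0610); the filter on dim genes removed Cyp26b1, Cyp26a1 and Aldh1a2. Leaving out 1 array gave 2 to 3 members called lower (2 without PBS 3, PBS 4, IL1B 1 or IL1B 4) and 0 called higher, and log2 fold changes of -0.38 to 0.077 for Aldh1a1 and -0.76 to 0.10 for Cyp26a1. It gave 0 to 1 pathway genes higher (0 without PBS 3, PBS 4, IL1B 1 or IL1B 3) and 3 to 8 lower (3 without IL1B 1), and 1082 to 1399 of all genes higher and 676 to 1077 lower (676 without IL1B 1, 677 without PBS 1, 781 without PBS 3). Pathway genes called higher were 0 with quantile normalization and 2 each with the filter on dim genes, with trend and robust and at a threshold of 0.15, at which 13 pathway genes were lower and 2634 of all genes were higher and 2592 lower. Quantile normalization turned the split of all calls to 1320 higher and 1511 lower. The deviations of same-numbered livers were weakly correlated (-0.07, 0.22, 0.05 and 0.12). So few and weak values cannot tell whether such livers share more than a number. With the replicate block, 3 members were lower, Rbp4 no longer being called (limma, adjusted p = 0.0666), and 1468 of all genes were higher and 1094 lower. Values at background or near saturation limit Rbp4, Aldh1a1, Cyp26a1, Cyp26b1 and Aldh1a2.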
